A study of Rattus norvegicus with 24 samples.

Results

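The kidneys of 12 male stroke-prone spontaneously hypertensive rats (SHR-SP) kept on normal chow are described here, 6 collected after 2 weeks and 6 after 8 weeks. They are 12 of the 24 arrays of the series, chosen by their labelled diet alone, with no measured value used. All 24 rats were of this strain, which develops high blood pressure with age, and were assigned to a diet at 11 weeks of age, so that the 2 ages compared are 13 and 19 weeks. The normal-diet rats had a powdered chow diet and water ad libitum, while the other 12 rats, also collected after 2 weeks (6 arrays) or 8 weeks (6 arrays), had chow with 24.5% fat and drinking water with 1% NaCl. No rat of another strain and no normotensive rat was analysed here, so age and the course of hypertension cannot be told apart within the normal-diet arm. Each array carried RNA of the pulverised whole kidney of 1 animal, and the values are MAS5 signals, a linear brightness per probe set, which is the group of short probes that reads 1 transcript.

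The kidney filters blood in the glomeruli and then reclaims most of the filtrate along the nephron. The proximal tubule takes back glucose, phosphate, amino acids and filtered protein and lives largely on fatty acid oxidation. The thick ascending limb takes back salt without water, the distal and connecting tubules tune sodium and calcium, and principal cells of the collecting duct move water through aquaporins under vasopressin. The kidney slows its growth as a rat reaches adulthood, and in this strain a salt load is known to hasten renal damage. The normal-diet arm gives the change over the same 6 weeks without that load.

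Few probe sets passed the test of time on the normal diet. Of 10208 probe sets tested, 4 were called between 8 and 2 weeks on the normal diet (0.0392% of those tested), 3 higher at 8 weeks (0.0294%) and 1 lower (0.0098%), at an adjusted p under 0.05 in limma. The 3 higher ones were Grem1, a secreted antagonist of bone morphogenetic proteins, Csrp1, a LIM domain protein of the actin cytoskeleton that is abundant in smooth muscle, and Aqp3, the water and glycerol channel of the basolateral membrane of principal cells. The lower one was Ccm2, a scaffold protein of the cerebral cavernous malformation complex known from endothelial cells. Differences below are on the log2(signal + 7.21) scale, 8 weeks minus 2 weeks, with the standard error (SE) of the fit, and this scale understates the change of dim probe sets. Over all tested probe sets the median difference was 0.011, 98.6% of the differences lay within 0.5 of 0, and 14 exceeded 1 in size, of which 1 was higher and 13 were lower at 8 weeks. Without adjustment, 869 probe sets had p under 0.05 (8.51%), 487 higher (4.77%) and 382 lower (3.74%), and these shares are the background for every gene group below. How many of all tested probe sets did not overlap between ages was not counted, so genes said not to overlap have no such background.

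The promoters of these 4 genes are shown because they are the reference start regions of the probe sets past the threshold; no binding or methylation was measured here. All 4 symbols matched the RefSeq table of the rat assembly GRCr8, and each sequence holds the 250 bases before the gene's start, 5′ to 3′ on the strand of the gene. They lie at chr3:120978320-120978569 (minus strand) for Grem1, chr13:49709678-49709927 (plus strand) for Csrp1, chr5:61040684-61040933 (minus strand) for Aqp3 and chr14:85632203-85632452 (plus strand) for Ccm2. Capitals mark, on either strand, 4 motifs that were searched for. The TATA box was searched for with the letters TATAAA. The letters CCAAT stood for the box of that name. For the GC box, a site of Sp1 family factors, the letters were GGGCGG. The E-box, read by clock and growth factors, was taken as CACGTG.
Grem1: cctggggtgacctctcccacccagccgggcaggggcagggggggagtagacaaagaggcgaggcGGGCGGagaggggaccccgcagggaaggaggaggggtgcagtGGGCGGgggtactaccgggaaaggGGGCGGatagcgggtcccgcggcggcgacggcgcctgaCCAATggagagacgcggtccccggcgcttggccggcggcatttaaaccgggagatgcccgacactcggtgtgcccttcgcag
Csrp1: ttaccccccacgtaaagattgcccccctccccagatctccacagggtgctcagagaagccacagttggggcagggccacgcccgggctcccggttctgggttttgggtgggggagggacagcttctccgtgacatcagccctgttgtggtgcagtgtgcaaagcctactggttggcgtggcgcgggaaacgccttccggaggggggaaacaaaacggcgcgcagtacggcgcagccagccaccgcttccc
Aqp3: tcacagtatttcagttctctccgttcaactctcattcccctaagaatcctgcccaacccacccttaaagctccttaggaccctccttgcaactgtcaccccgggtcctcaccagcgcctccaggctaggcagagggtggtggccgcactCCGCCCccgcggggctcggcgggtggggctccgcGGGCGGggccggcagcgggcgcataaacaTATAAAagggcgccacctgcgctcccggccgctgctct
Ccm2: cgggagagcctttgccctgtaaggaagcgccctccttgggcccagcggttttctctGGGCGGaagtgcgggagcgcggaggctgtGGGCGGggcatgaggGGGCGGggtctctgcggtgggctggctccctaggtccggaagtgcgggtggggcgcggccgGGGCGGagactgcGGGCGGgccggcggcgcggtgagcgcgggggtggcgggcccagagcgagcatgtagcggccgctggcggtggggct
The Grem1 window held 1 CCAAT box and 3 GC boxes, that of Aqp3 held 1 TATA box and 2 GC boxes, and that of Ccm2 held 5 GC boxes. The Csrp1 window held 0 of these motifs, and none of the 4 windows held an E-box. Among 33469 rat promoters of the same length, 12.9% held the TATA box, 34.0% the CCAAT box, 30.5% the GC box and 5.59% the E-box. The GC content was 72.0% for Grem1, 64.8% for Csrp1, 65.2% for Aqp3 and 76.0% for Ccm2.

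Grem1 protein binds bone morphogenetic proteins outside the cell and keeps them from their receptors. Its signals at 2 weeks were 43.2, 60.5, 98.6, 73.6, 154.8 and 171.6, and those at 8 weeks were 156.6, 306.6, 241.5, 232.9, 233.3 and 205.5. All 6 arrays at 8 weeks lay above the median of the 2-week arrays, although the lowest of them fell just short of the highest 2-week array, so the groups overlapped. The mean rose from 100.4 ± 52.2 to 229.4 ± 49.0 (SD, n = 6 each), a difference of 1.26 ± 0.22 or 2.39-fold (limma adjusted p = 0.0262). The call was kept in 4 of 12 repeats with 1 array left out, with differences of 1.07 to 1.43 and adjusted p of 0.00261 to 0.145. It was lost without 2-week array 1, 2 or 4, or without 8-week array 2, 3, 4, 5 or 6.

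Csrp1 was the one called gene whose groups did not overlap. Its signals were 315.4, 361.6, 290.6, 288.1, 335.6 and 319.0 at 2 weeks and 440.5, 497.4, 408.4, 410.5, 415.8 and 431.1 at 8 weeks. The mean rose from 318.4 ± 27.8 to 434.0 ± 33.5 (SD, n = 6 each), a difference of 0.44 ± 0.08 or 1.36-fold (limma adjusted p = 0.0276). With 1 array left out the difference stayed between 0.40 and 0.48, and the call was kept in 3 of 12 repeats, with adjusted p of 0.0341 to 0.145. It was lost without 2-week array 1, 3, 4 or 5 or 8-week array 2, 3, 4, 5 or 6.

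Aqp3 read 265.3, 304.0, 350.1, 300.2, 277.0 and 376.5 at 2 weeks and 344.2, 424.2, 430.8, 446.8, 466.0 and 421.8 at 8 weeks. Array 1 at 8 weeks was the only one of its group inside the 2-week range. The mean rose from 312.2 ± 42.9 to 422.3 ± 41.7 (SD, n = 6 each), a difference of 0.43 ± 0.08 or 1.35-fold (limma adjusted p = 0.0488). The call was kept in 3 of 12 repeats with 1 array left out, with adjusted p of 0.00545 to 0.179, and lost without 2-week array 1, 2, 4 or 5 or 8-week array 2, 3, 4, 5 or 6.

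Ccm2 read 153.5, 96.2, 94.6, 105.3, 127.9 and 86.1 at 2 weeks and 93.6, 22.6, 21.0, 14.5, 55.8 and 28.5 at 8 weeks. All 6 arrays at 8 weeks lay below the 2-week median, and array 1 alone lay inside the 2-week range. On 8 of the 12 arrays the signal was above the 40th percentile of the array, the level used to keep probe sets (46.4 to 54.5 on these arrays); 4 of the 8-week values lay below it. The mean fell from 110.6 ± 25.4 to 39.3 ± 30.2 (SD, n = 6 each), a difference of -1.53 ± 0.27 or 0.35-fold (limma adjusted p = 0.0262). Left-out repeats gave -1.80 to -1.35 with adjusted p of 0.000226 to 0.145 and kept the call in 5 of 12, losing it without 2-week array 1, 4 or 5 or 8-week array 2, 3, 4 or 6.

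**Figure D1:**
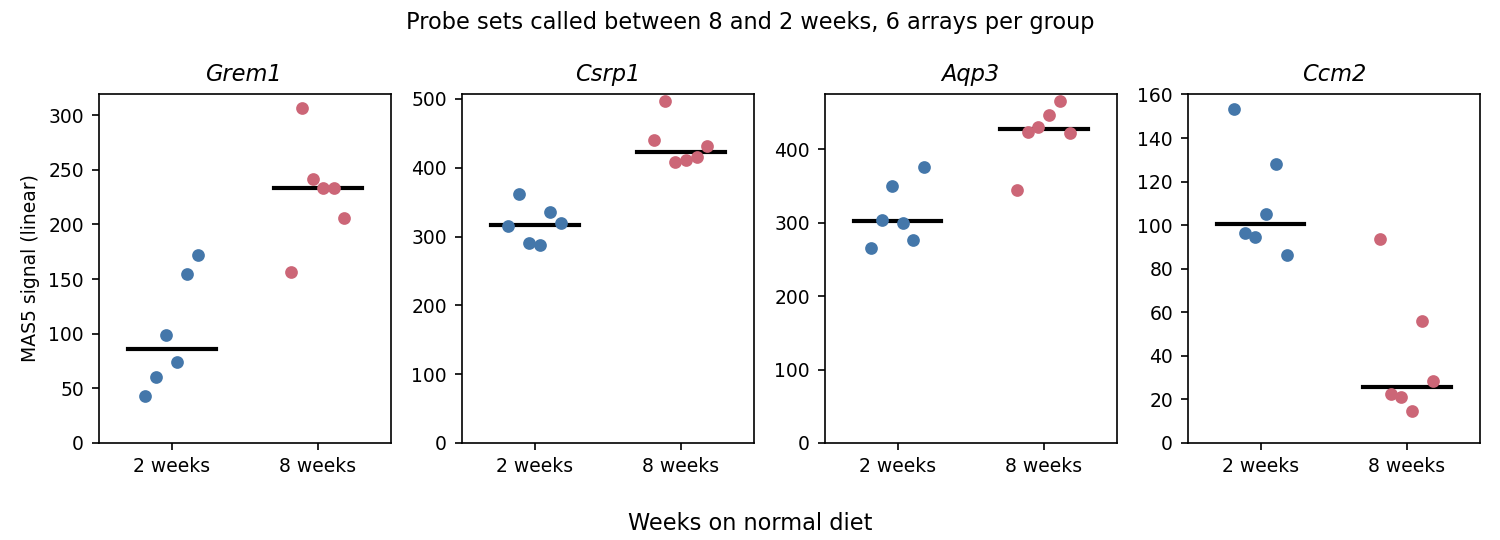
MAS5 signal on a linear axis (vertical) for each of the 4 called probe sets after 2 and 8 weeks on the normal diet. Each point is 1 animal and the bar is the median of 6; for Csrp1 the groups do not overlap (288.1 to 361.6 against 408.4 to 497.4), and for Ccm2 1 array at 8 weeks (93.6) lies inside the 2-week range.

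The calls depended on the settings. A fit to the 12 normal-diet arrays alone, without the other 12 arrays to share the estimate of the spread, called 0 probe sets, with 922 at an unadjusted p under 0.05. The limma fit without an intensity trend also called 0, with 878 at that threshold. Each array is a separate rat. The p-values of the main fit weigh a difference against the spread between animals of the same group, pooled over both diets and adjusted by the intensity trend.

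Arrays 1 and 2 of the 8-week group stood apart from the other 10 normal-diet arrays. Their dimmest probe sets were brighter, with a 1st percentile of 2.4 and 3.0 against 1.0 to 1.2, and on the first principal component (19.5% of the variance) they scored 23.65 and 23.49 against -9.27 to -1.65. Array medians of all 12 were 69.0 to 78.7 and were highest on these 2 arrays (74.9 and 78.7). Correlations of log2 signals between animals were 0.968 to 0.975 at 2 weeks and 0.958 to 0.974 at 8 weeks. The 3′ to 5′ ratio of GAPDH, a measure of RNA integrity, was 1.09 ± 0.07 at 2 weeks and 1.16 ± 0.07 at 8 weeks (exact two-sided permutation p = 0.139), and that of actin was 1.31 ± 0.12 and 1.42 ± 0.05 (exact p = 0.0866). The level of the spiked-in control transcripts was lower at 8 weeks by 0.295 on the log2 scale in mean (0.165 ± 0.060 against -0.130 ± 0.239, exact permutation p = 0.0152, adjusted over 4 measures 0.0608), with 5 of 6 arrays below the 2-week median. It was lowest on 8-week arrays 1 and 2 (-0.443 and -0.308, against -0.106 to 0.260 on the other 10). The spike-in covariate and the removal of these 2 arrays are therefore not separate checks. With the spike-in level as a covariate in limma 0 probe sets were called (522 at an unadjusted p under 0.05), while the 4 genes had differences of 1.14 ± 0.27 (Grem1), 0.37 ± 0.10 (Csrp1), 0.51 ± 0.10 (Aqp3) and -1.60 ± 0.33 (Ccm2), with adjusted p of 0.163 to 0.579. With the GAPDH ratio 0 were called as well (938 at an unadjusted p under 0.05), and the differences were 1.24, 0.40, 0.42 and -1.43.

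Without arrays 1 and 2 of the 8-week group, 9 probe sets were called, 5 higher and 4 lower, and 3 of them (Grem1, Aqp3 and Ccm2) were also called with all arrays. Csrp1 then had a difference of 0.38 ± 0.09 (limma adjusted p = 0.107), while Ccm2 had -1.76 ± 0.25 (adjusted p = 0.0018). The 6 others were chosen after their values were seen. They were Aqp2, the apical aquaporin that vasopressin controls, Krt18, a keratin of simple epithelia, Tacc2, a centrosome-associated protein, Lipe, the hormone-sensitive lipase of fat cells, and 2 probe sets of Thrsp, a nuclear protein of lipogenic tissue. Aqp2 read 447.2 to 840.8 (median 583.2) at 2 weeks and 616.9 to 1062.0 (median 936.0) at 8 weeks, and its difference was 0.74 ± 0.14 without these arrays (adjusted p = 0.0289) against 0.59 ± 0.14 with them (adjusted p = 0.169). Tacc2 read 305.1 to 376.1 at 2 weeks and, array 1 (288.0) aside, 430.0 to 529.8 at 8 weeks, with a difference of 0.57 ± 0.08 without the arrays (adjusted p = 0.00202) and 0.41 ± 0.10 with them (adjusted p = 0.169). Krt18 gave 0.66 ± 0.13 (adjusted p = 0.0474) against 0.51 ± 0.16 with all arrays (adjusted p = 0.299). A fat index, the mean standardised level of Fabp4, Cfd and Car3, was also used as a covariate with all arrays. The differences were then 0.33 (Aqp2), 0.21 (Krt18) and 0.27 (Tacc2), with limma adjusted p of 0.311 to 0.624. With the spike-in covariate they were 0.76, 0.58 and 0.60, with adjusted p of 0.12 to 0.665. Lipe and Thrsp are described with the fat genes.

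The labelled tissue was checked against markers of the nephron. Levels of different probe sets cannot be set against each other, so each range below stands for its own gene. All 6 defining genes of the proximal tubule were above the 40th percentile on every one of the 12 arrays. Slc34a1, the sodium-phosphate cotransporter of the brush border, read 4909.4 to 6017.6 (median 5226.8) at 2 weeks and 4024.7 to 5995.7 (median 4917.8) at 8 weeks. Lrp2, the endocytic receptor megalin, read 2778.3 to 3228.2 and 2393.0 to 3258.2, and its partner Cubn read 1139.7 to 1259.4 and 1004.7 to 1243.4. The glucose transporter Slc5a2 read 549.0 to 879.0 and 577.6 to 891.7. Ranges of the 2 ages overlapped for all of these genes.

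Markers of the later segments were likewise present. In the thick ascending limb, Umod, the secreted glycoprotein uromodulin, read 5168.0 to 6056.6 at 2 weeks and 4737.2 to 6160.6 at 8 weeks, and Slc12a1, the furosemide-sensitive salt cotransporter, read 328.9 to 481.2 and 268.2 to 470.6. In the distal tubule, Slc12a3, the thiazide-sensitive cotransporter, read 467.9 to 701.4 and 463.2 to 782.7. Calb1, a calcium-binding protein of the connecting tubule, read 1277.2 to 1725.1 at 2 weeks and 1149.7 to 1334.4 at 8 weeks, with all 6 arrays at 8 weeks below the 2-week median and a difference of -0.28 ± 0.10 that was not called (limma adjusted p = 0.426). Intercalated cells, which handle acid and base, were marked by Slc4a1 (321.0 to 440.8 and 333.2 to 417.7) and by Slc26a4, pendrin, which read 157.5 to 201.4 and 200.8 to 268.0 with a difference of 0.37 ± 0.11 (adjusted p = 0.238). In the glomerulus Nphs1, nephrin of the slit diaphragm, read 69.7 to 83.0 and 52.0 to 90.3, and Podxl, podocalyxin, read 256.0 to 280.4 and 264.0 to 343.6.

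**Figure D2:**
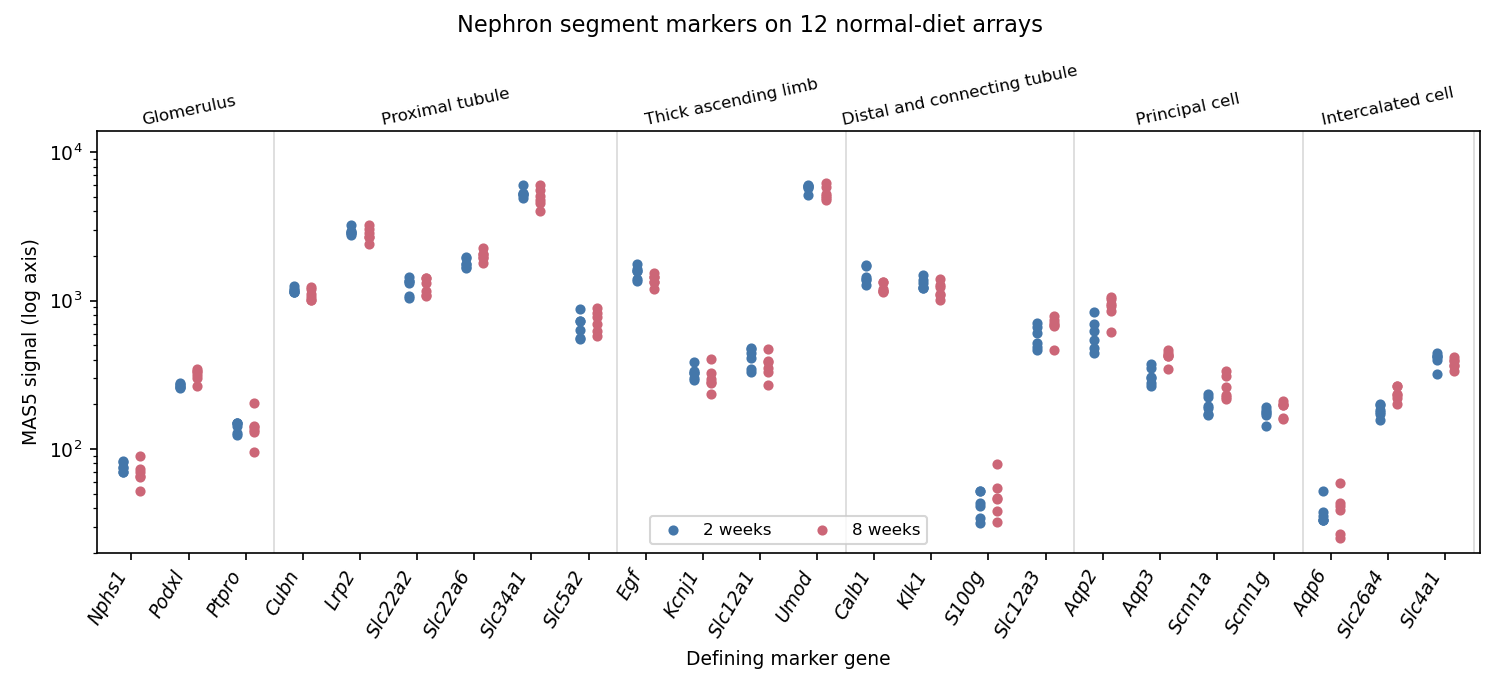
MAS5 signal on a log axis for the defining marker genes of 6 nephron segments, with 6 arrays at 2 weeks (blue) and 6 at 8 weeks (red) on the normal diet. Each point is 1 animal, and levels of different genes are not comparable; the 2 ages overlap for all genes shown, for example 4909.4 to 6017.6 and 4024.7 to 5995.7 for Slc34a1.

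Other cell types were checked in the same way. Vessel and stroma genes were present, for example Emcn of endothelium (343.0 to 419.5 and 360.3 to 415.0), Myh11 of smooth muscle (84.8 to 135.4 and 94.6 to 144.7) and Dcn of fibroblasts (625.1 to 1003.3 and 584.3 to 830.0). Resident macrophages were marked by C1qa, a complement component (155.8 to 194.3 and 150.7 to 178.8), and antigen presentation by Cd74, the invariant chain (2777.7 to 3526.6 and 2819.6 to 3311.2). The 4 defining lymphocyte genes (Cd3d, Cd3e, Cd8a and Cd79b) and the 2 of neutrophils (S100a8 and S100a9) were above the 40th percentile on 0 of 12 arrays, with no signal over 33.2. Of the adrenal cortex genes, Star, Cyp11b1 and Cyp21a1 were also above that level on 0 arrays, but Cyp11a1, which starts steroid synthesis, was above it on 6 (39.2 to 58.8 at 2 weeks and 30.7 to 74.5 at 8 weeks). Of the adrenal medulla genes, Dbh and Chga were above it on 0 arrays and Th, the rate-limiting enzyme of catecholamine synthesis, on 1. Of 13 skeletal muscle genes with a probe set, only 2 were bright enough on enough of the arrays to be tested. These were the muscle creatine kinase gene Ckm, above that level on 11 arrays (55.9 to 77.8 and 38.0 to 118.6), and the myosin gene Myh1, on all 12 (1530.1 to 1890.5 and 1113.3 to 1550.7). Acta1 and Tnnt3 were above it on 0 arrays. Myh1 was lower at 8 weeks at an unadjusted p under 0.05 (-0.33 ± 0.08, limma adjusted p = 0.169). Hbb of red cells read 1799.8 to 2803.3 at 2 weeks and 1495.4 to 2486.2 at 8 weeks. In bulk tissue such as this, fewer cells of a type and less RNA per cell cannot be told apart.

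Principal cells of the collecting duct were the tubule group with a called gene. Of 14 genes tested, 1 was called (Aqp3), 4 were higher at an unadjusted p under 0.05 (Aqp2, Aqp3, Scnn1a and the dim Aqp4, above the 40th percentile on 1 of 12 arrays) and 1 was lower (Hsd11b2), and the list's median difference was 0.11 against 0.011 over all probe sets. Scnn1a, the alpha subunit of the epithelial sodium channel, read 168.7 to 235.8 at 2 weeks and 217.3 to 334.6 at 8 weeks, with a difference of 0.40 ± 0.11 (limma adjusted p = 0.238). The gamma subunit gene Scnn1g, with 142.0 to 192.7 and 160.6 to 211.0, gave 0.11 ± 0.09 (adjusted p = 0.776). Hsd11b2, the enzyme that keeps glucocorticoids off the mineralocorticoid receptor, read 643.8 to 800.5 and 536.7 to 659.2, with -0.19 ± 0.08 (adjusted p = 0.529). Under the spike-in covariate the median of the list was 7.8e-05, and 3 genes were higher and 0 lower at an unadjusted p under 0.05. With the fat index the median was 0.11, with 3 higher and 0 lower.

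Of 40 proximal tubule genes tested, 0 were called, 1 was higher and 4 were lower at an unadjusted p under 0.05, and 33 had a difference below 0, with a list median of -0.09. Those lower were Slc22a7 (-0.29 ± 0.10), an organic anion transporter, Fbp1 (-0.25 ± 0.08), a gluconeogenic enzyme, Anpep (-0.24 ± 0.08) and Ggt1 (-0.20 ± 0.08), both brush border peptidases, and the limma adjusted p was 0.309 or more for each. Slc22a6, the basolateral organic anion transporter OAT1, was on the higher side, with 1653.0 to 1975.7 at 2 weeks and 1804.0 to 2260.0 at 8 weeks (0.17 ± 0.08, adjusted p = 0.542). The list median depended on the arrays that stood apart: without 8-week arrays 1 and 2 it was -0.05 with 1 gene higher and 0 lower, and with the spike-in covariate it was 0.0038. With the fat index as a covariate it was -0.10, with 0 genes higher and 8 lower. Thick ascending limb genes had a median of -0.10 over 12 tested, with 1 lower at an unadjusted p under 0.05, Egf, the epidermal growth factor gene (-0.17 ± 0.07, adjusted p = 0.522). That median was -0.02 without 8-week arrays 1 and 2 and -0.04 with the spike-in covariate, with 0 lower in either. With the fat index it was -0.13, with 1 lower.

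Interstitial matrix genes, which form the scaffold between tubules, included collagens with lower values at 8 weeks that did not pass the test. Of 36 tested, 0 were called, 1 was higher and 7 were lower at an unadjusted p under 0.05, and the median was -0.09. Col1a1, a chain of type I collagen, read 236.2, 142.5, 136.0, 144.5, 104.6 and 117.6 at 2 weeks and 91.7, 105.2, 66.7, 77.5, 93.7 and 51.3 at 8 weeks, with a difference of -0.79 ± 0.20 (limma adjusted p = 0.189). Its groups overlapped by 1 array at each age. Col3a1, of type III collagen, read 653.6, 484.4, 509.2, 451.1, 344.3 and 387.1 and then 356.2, 317.0, 292.1, 308.0, 320.6 and 280.3, with -0.56 ± 0.14 (adjusted p = 0.169). Col1a2, the other chain of type I collagen, gave -0.43 ± 0.15 (adjusted p = 0.369). Sparc, a matrix glycoprotein, did not overlap between ages (961.0 to 1137.8 against 741.8 to 923.8) and gave -0.31 ± 0.08 (adjusted p = 0.211). Without 8-week arrays 1 and 2 1 gene was higher and 8 were lower at an unadjusted p under 0.05, with a median of -0.14. With the fat index in the fit the counts were 1 and 5 with a median of -0.03, and with the spike-in level they were 0 and 4 with a median of -0.10.

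TGF-beta and BMP genes, which steer matrix turnover and tubule repair, included the called gene Grem1. Of 29 tested, 1 was called (Grem1), 3 were higher and 0 lower at an unadjusted p under 0.05, and the median was 0.07. With the spike-in covariate 2 were higher and 2 lower, and the median was 0.022. Bmp6, a bone morphogenetic protein, read 51.8 to 72.3 at 2 weeks and 69.3 to 97.7 at 8 weeks (0.33 ± 0.11, limma adjusted p = 0.326), and Skil, a repressor of Smad signalling, gave 0.18 ± 0.08 (adjusted p = 0.522). Bmp7, made by the tubules, read 381.1 to 437.7 and 381.4 to 480.3 (0.04 ± 0.07), and Tgfb1 was low, with 8.2 to 31.3 and 6.0 to 56.6.

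Smooth muscle genes had a median of 0.11 over 13 tested, with 0 called and 3 higher at an unadjusted p under 0.05. Smtn, smoothelin of contractile muscle, read 124.7 to 159.6 at 2 weeks and 152.9 to 222.2 at 8 weeks (0.38 ± 0.09, limma adjusted p = 0.169), and Acta2, smooth muscle actin, read 139.6 to 202.0 and 174.8 to 259.2 (0.36 ± 0.12, adjusted p = 0.326). Without 8-week arrays 1 and 2 the median was 0.05 and 1 gene was higher, and with the spike-in covariate the median was 0.06 and 1 was higher. With the fat index the median was 0.14 and 3 were higher. Endothelial genes had 2 higher and 0 lower of 15 at an unadjusted p under 0.05, Podxl and Thbd, and glomerular genes had 1 of 10, again Podxl (0.23 ± 0.08, adjusted p = 0.378).

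The genes that define renal injury were low or level at both ages. Havcr1, kidney injury molecule 1 of damaged proximal tubule, read 35.8, 34.7, 32.3, 94.7, 31.0 and 19.7 at 2 weeks and 68.0, 57.2, 56.2, 41.0, 30.1 and 48.1 at 8 weeks, above the 40th percentile on 5 of 12 arrays, with a difference of 0.34 ± 0.33 (limma adjusted p = 0.832). Lcn2, the iron-trapping protein NGAL, read 30.1 to 54.5 and 19.5 to 62.2 and passed that level on 3 of 12 arrays. Spp1, osteopontin, read 790.5 to 1325.8 and 888.0 to 1637.4, and Clu, clusterin, read 538.9 to 689.8 and 575.1 to 759.5. The list of 26 injury genes had 0 called, 1 higher (Krt18) and 1 lower (Krt19) at an unadjusted p under 0.05 and a median of 0.08.

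Immune groups had few genes at an unadjusted p under 0.05. Of 17 macrophage and myeloid genes, 1 was higher (Tyrobp, 0.31 ± 0.13) and 1 lower (Cd68, -0.34 ± 0.14) at an unadjusted p under 0.05, with a median of -0.0054. Of 17 genes of antigen presentation 1 was higher, RT1-DMb, which loads peptides on class II molecules and whose ages did not overlap (277.4 to 340.3 against 344.6 to 370.3), with 0.18 ± 0.07 (limma adjusted p = 0.47). Among 10 chemokine and adhesion genes, Ccl20, a chemoattractant of lymphocytes and dendritic cells, did not overlap either (62.1 to 82.8 against 83.1 to 137.4), with 0.51 ± 0.18 (adjusted p = 0.382). Of 14 interferon genes 1 was higher, Cxcl10 (0.40 ± 0.12, adjusted p = 0.285).

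In the hormone axes, the renin-angiotensin, endothelin and mineralocorticoid list had 12 genes tested, 0 called and 0 higher, with 3 lower at an unadjusted p under 0.05 and a median of -0.17; with the spike-in covariate 0 were lower, with a median of -0.16. Those lower were Npr1, the natriuretic peptide receptor (-0.66 ± 0.26, dim, above the 40th percentile on 2 of 12 arrays), Hsd11b1, which regenerates active glucocorticoid (2312.0 to 2618.7 and 1945.6 to 2372.4, -0.21 ± 0.07), and Hsd11b2. Agt, angiotensinogen, read 114.7 to 165.8 and 105.0 to 181.4, and Ace, the converting enzyme, read 38.6 to 50.7 and 21.2 to 49.5. Of the 12 androgen-responsive genes, 2 were lower and 0 higher at an unadjusted p under 0.05. The prolactin receptor gene Prlr read 523.7 to 667.5 at 2 weeks and 381.0 to 601.0 at 8 weeks (-0.37 ± 0.13, limma adjusted p = 0.369). In the insulin-like growth factor axis 1 of 13 was lower, the insulin receptor gene Insr (-0.37 ± 0.17), while Igf1 itself read 130.0 to 193.1 and 103.8 to 169.7 (-0.22 ± 0.14, adjusted p = 0.667).

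Of 18 cell cycle genes, 0 were called and 1 was higher at an unadjusted p under 0.05, Ccnd1, cyclin D1 (435.4 to 558.8 and 372.7 to 770.3, 0.25 ± 0.11), and the mitotic genes Top2a and Cdk1 were above the 40th percentile on 0 of 12 arrays. Kl, the renal hormone klotho, read 63.1 to 84.7 and 51.9 to 93.6, with a difference of -0.01 ± 0.18. The 20 clock genes and 17 immediate early genes had 0 higher and 0 lower at that threshold, but varied between animals of the same age: Dbp, a clock output factor, read 81.9 to 228.7 at 2 weeks and 63.1 to 325.6 at 8 weeks, and Per1, a core clock repressor, 73.5 to 174.2 and 24 to 177.5.

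**Figure D3:**
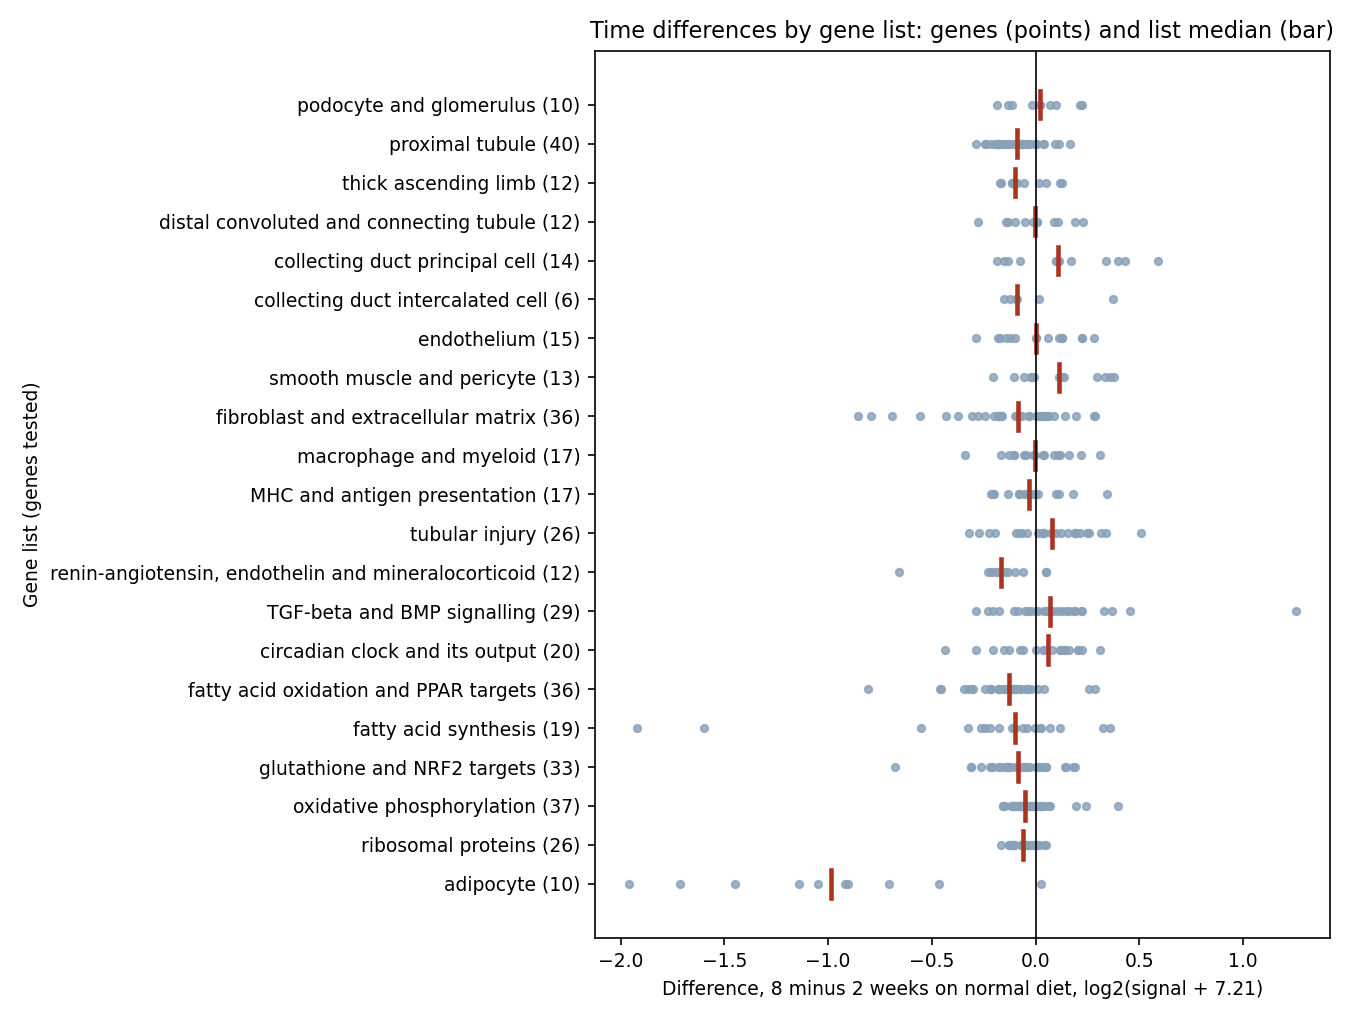
Difference between 8 and 2 weeks on the normal diet, on the log2(signal + 7.21) scale (horizontal), for the genes of 21 lists, with the number of genes tested in brackets. Each point is a gene and each red bar the list median; the adipocyte list has the lowest median, -0.98, and the others shown lie between -0.17 and 0.11.

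Adipocyte genes had the lowest median of the gene lists and also the widest spread between animals. Of 10 adipocyte genes tested, 0 were called and 9 were lower at an unadjusted p under 0.05, with a median of -0.98. The summed signal of the list was 673.1 to 5056.5 (median 2213.2) at 2 weeks and 399.1 to 4412.5 (median 776.1) at 8 weeks. Fabp4, the fatty acid binding protein of adipocytes, read 419.3, 914.0, 1236.0, 157.9, 288.8 and 50.2 at 2 weeks and 952.6, 99.9, 49.6, 158.2, 42.3 and 1.0 at 8 weeks, with a difference of -1.96 ± 0.72 (limma adjusted p = 0.432). Car3, a carbonic anhydrase of fat and muscle, read 946.4, 2115.9, 2232.4, 568.9, 588.9 and 174.7 and then 2089.9, 350.1, 63.6, 639.7, 153.4 and 34.0 (-1.71 ± 0.65, adjusted p = 0.454). Both were high on the same 4 arrays, 1, 2 and 3 at 2 weeks and 1 at 8 weeks, and low on array 6 of either age. These 4 arrays were the highest for 9 of 12 genes, which were the 10 adipocyte genes tested and the lipogenic genes Scd and Thrsp.

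Ucp1, the uncoupling protein of brown fat, read 197.6, 150.8, 29.5, 37.9, 32.2 and 22.2 at 2 weeks and 13.7, 34.1, 17.0, 41.4, 23.8 and 17.8 at 8 weeks (-1.05 ± 0.42, limma adjusted p = 0.482). Cidea, a lipid droplet protein of brown fat, read 219.6, 236.6, 94.8, 95, 78.1 and 52.2 and then 78.0, 62.0, 55.3, 62.7, 54.0 and 36.3 (-0.90 ± 0.24, adjusted p = 0.211). Arrays 1 and 2 at 2 weeks were high for both genes, although Ucp1 was dim and above the 40th percentile only on these 2 of the 12 arrays. Array 1 at 8 weeks was the highest of its group for Cidea, as for Fabp4 and Car3. Lipe read 114.8, 135.5, 131.7, 55.0, 60.3 and 46.4 and then 93.8, 12.3, 32, 30.0, 14 and 14.6 (-1.45 ± 0.33, adjusted p = 0.169; -1.66 ± 0.30 without 8-week arrays 1 and 2, adjusted p = 0.026).

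**Figure D4:**
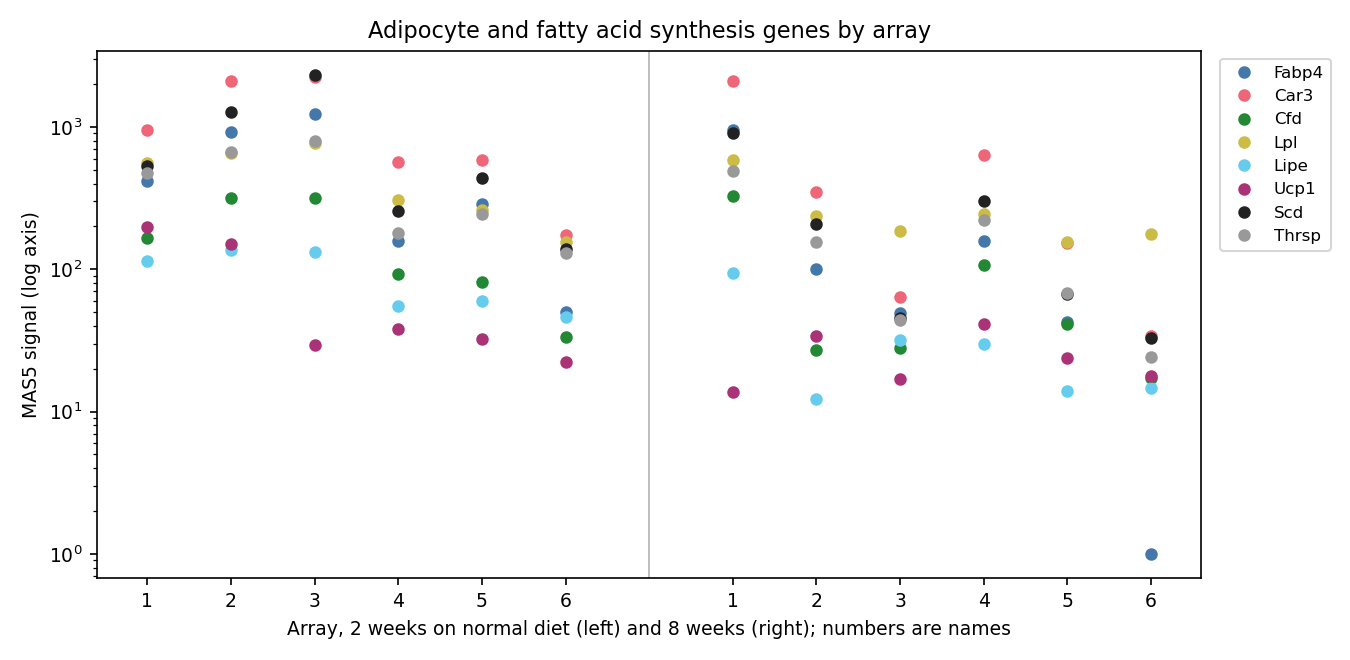
MAS5 signal on a log axis of 8 genes of the adipocyte and fatty acid synthesis lists on each of the 12 normal-diet arrays (horizontal, 6 at 2 weeks on the left and 6 at 8 weeks on the right). Each colour is a gene; arrays 1, 2 and 3 at 2 weeks and array 1 at 8 weeks stand high, with Fabp4 at 419.3 to 1236.0 on these 4 and at 1.0 to 288.8 on the other 8.

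The lipogenic genes Scd and Thrsp varied over the same arrays. Scd, the stearoyl-CoA desaturase, read 534.3, 1273.0, 2328.3, 258.7, 436.7 and 137.8 at 2 weeks and 899.9, 206.3, 45.2, 303.6, 67.4 and 32.8 at 8 weeks (-1.92 ± 0.60, limma adjusted p = 0.309). The Thrsp probe set of highest mean signal gave -1.60 ± 0.48 with all arrays (adjusted p = 0.285) and -2.25 ± 0.46 without 8-week arrays 1 and 2 (adjusted p = 0.0474), and a further Thrsp probe set gave -2.43 without them (adjusted p = 0.0474). Of 19 fatty acid synthesis genes tested, 1 was higher and 5 were lower at an unadjusted p under 0.05, with a median of -0.10. The one higher was Srebf1, the transcription factor that drives this pathway (97.1 to 180.8 and 121.4 to 251.9, 0.32 ± 0.16, adjusted p = 0.579). The mean standardised level of Fabp4, Cfd and Car3, used as a fat index, was 0.90 ± 0.92 at 2 weeks and -0.15 ± 1.23 at 8 weeks (exact two-sided permutation p = 0.126, adjusted 0.139). With this index as a covariate the fatty acid synthesis list had 1 higher and 1 lower and a median of -0.03, Scd gave -0.47, and the adipocyte median, from which the index was made, was -0.10.

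Fatty acid oxidation is the main fuel pathway of the proximal tubule. Of 36 genes tested, 0 were called, 1 was higher and 11 were lower at an unadjusted p under 0.05 (background 4.77% and 3.74%), 32 had a difference below 0, and the median was -0.13. Eci2, an enoyl-CoA isomerase of peroxisomes and mitochondria, did not overlap between ages (545.5 to 638.5 against 473.3 to 503.9), with -0.24 ± 0.06 (limma adjusted p = 0.169). Cpt2, the inner membrane carnitine palmitoyltransferase, read 260.4 to 315.7 and 183.9 to 266.0 (-0.35 ± 0.09, adjusted p = 0.211), and Slc25a20, the carnitine carrier between the membranes, 227.4 to 268.6 and 152.9 to 253.4 (-0.31 ± 0.10, adjusted p = 0.309). Pdk4, which turns pyruvate away from oxidation, read 355.8, 246.4, 256.7, 173.9, 109.8 and 83.3 at 2 weeks and 119.7, 112.6, 118.7, 98.8, 67.2 and 99.2 at 8 weeks (-0.81 ± 0.23, adjusted p = 0.238). The one higher was Ucp2, a mitochondrial carrier (132.8 to 184.8 and 157.4 to 233.3, 0.29 ± 0.11). Without 8-week arrays 1 and 2 the counts were 1 higher and 10 lower with a median of -0.14, and after adding the fat index to the fit they were 1 and 5 with a median of -0.08. The part of fat cells in this list was not tested beyond this covariate.

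Of 33 glutathione and NRF2 target genes, 0 were called or higher and 5 were lower at an unadjusted p under 0.05, with a median of -0.08. Gclc and Gclm, the subunits of the rate-limiting enzyme of glutathione synthesis, read 5042.4 to 7199.0 and 1463.2 to 1734.5 at 2 weeks and 4034.7 to 5925.8 and 1122.1 to 1563.8 at 8 weeks, with -0.31 ± 0.11 and -0.26 ± 0.08 (limma adjusted p = 0.369 and 0.277). Without 8-week arrays 1 and 2, 2 genes of the list were lower, and with the spike-in covariate 2 were lower with a median of -0.03. With the fat index 5 were lower, with a median of -0.08. Respiratory chain genes had 2 higher and 1 lower of 37, and ribosomal protein genes 0 of 26; their medians of -0.05 and -0.06 changed sign to 0.017 and 0.016 under quantile normalisation, and to 0.0011 and 0.025 with the spike-in covariate.

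The same 6 weeks were compared between diets, using arrays that the 2 time differences do not share. On the salt and fat diet 360 probe sets were called between 8 and 2 weeks (3.53%), and the test of the difference between the time effects, normal diet minus salt and fat diet, called 39 (0.382%), 4 higher (0.0392%) and 35 lower (0.343%). Havcr1 was lower in this difference by -2.48 ± 0.47 (limma adjusted p = 0.0155), with 0.34 ± 0.33 on the normal diet and 2.82 ± 0.33 on the other, where it read 28.0 to 96.0 at 2 weeks and 177.4 to 879.0 at 8 weeks. Lcn2 (-1.73 ± 0.32, adjusted p = 0.0113) likewise had no called time effect on the normal diet (-0.06 ± 0.22). COX1, a subunit of the respiratory chain encoded by mitochondrial DNA, read 4637.4 to 6311.7 at 2 weeks and 3154.4 to 8425.2 at 8 weeks on the normal diet, against 1817.5 to 3040.2 and 5053.0 to 7457.4 on the other, with -1.72 ± 0.23 between the time effects (adjusted p = 0.000306).

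The test between the 2 time effects called 0.382% of all tested probe sets, 0.343% as lower. In it 5 of 26 tubular injury, 4 of 17 macrophage and myeloid and 3 of 17 antigen presentation genes were called, all lower. Among adipocyte genes 2 of 10 (Ucp1 and Cidea) and among matrix genes 2 of 36 (Col1a1 and Col3a1) were called, all lower. A probe set of the lipogenic gene Thrsp was called lower as well. Ucp1 gave -1.05 ± 0.42 over time on the normal diet and 1.74 ± 0.42 on the other (difference -2.79 ± 0.59, limma adjusted p = 0.0247). On the other diet it read 7.2 to 48.8 at 2 weeks and 36.3 to 162.2 at 8 weeks. Ucp1 thus passed the filter only through the 8-week group of that diet, where it was high. The called Thrsp probe set gave -1.77 ± 0.52 and 1.41 ± 0.52 (difference -3.18 ± 0.73, adjusted p = 0.0483). Its other probe sets gave differences of -2.86 ± 0.68 (adjusted p = 0.0529) and -3.06 ± 0.81 (adjusted p = 0.118). When the fat index was fitted too, the differences of Ucp1 and the called Thrsp probe set were -2.16 (adjusted p = 0.247) and -0.86 (adjusted p = 0.392). The Thrsp call was lost without 2-week array 1, 2 or 3 or 8-week array 2, 3, 4, 5 or 6 (adjusted p of 0.0109 to 0.0922 over the 12 repeats), and the Ucp1 call without 2-week array 2 (0.0527). Col1a1 had -0.79 ± 0.20 on the normal diet and 0.78 ± 0.20 on the other (difference -1.57 ± 0.28, adjusted p = 0.011), and Col3a1 had -0.56 ± 0.14 and 0.35 ± 0.14 (difference -0.91 ± 0.19, adjusted p = 0.0247). With the fat index the adjusted p was 0.137 for Col1a1 and 0.259 for Col3a1.

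The 4 higher in this test were Slc9a3, Nae1, Tmtc1 and Gcnt2. Slc9a3, the sodium-proton exchanger NHE3 of the proximal tubule, was level on the normal diet, with 284.7 to 431.3 at 2 weeks and 322.7 to 406.0 at 8 weeks (0.04 ± 0.08), and fell on the other diet from 366.6 to 446.1 down to 227.7 to 284.6 (-0.65 ± 0.08, limma adjusted p = 3.17e-05), a difference of 0.68 ± 0.12 (adjusted p = 0.00871). Nae1, a subunit of the NEDD8-activating enzyme, did not overlap between ages on the normal diet (56.6 to 78.0 against 81.3 to 106.7), with 0.43 ± 0.11 there (adjusted p = 0.211) and -0.37 ± 0.11 on the other, a difference of 0.80 ± 0.16 (adjusted p = 0.017). Tmtc1, an endoplasmic reticulum protein, gave 0.59 ± 0.12 (adjusted p = 0.0219), and Gcnt2, a glycan-branching enzyme, 0.59 ± 0.12 (adjusted p = 0.0165). Of the genes called over time on the normal diet, 0 were called in this test: the differences were 0.85 ± 0.31 for Grem1 (adjusted p = 0.277), 0.15 ± 0.11 for Csrp1 (0.653), 0.41 ± 0.12 for Aqp3 (0.15) and -1.18 ± 0.38 for Ccm2 (0.203). Csrp1 also rose on the salt and fat diet, by 0.29 ± 0.08 (adjusted p = 0.0419), from 389.5 to 556.9 at 2 weeks to 495.6 to 586.2 at 8 weeks. The number called changed with covariates: 4 with the GAPDH ratio, 0 with the spike-in level and 13 with the fat index.

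**Figure D5:**
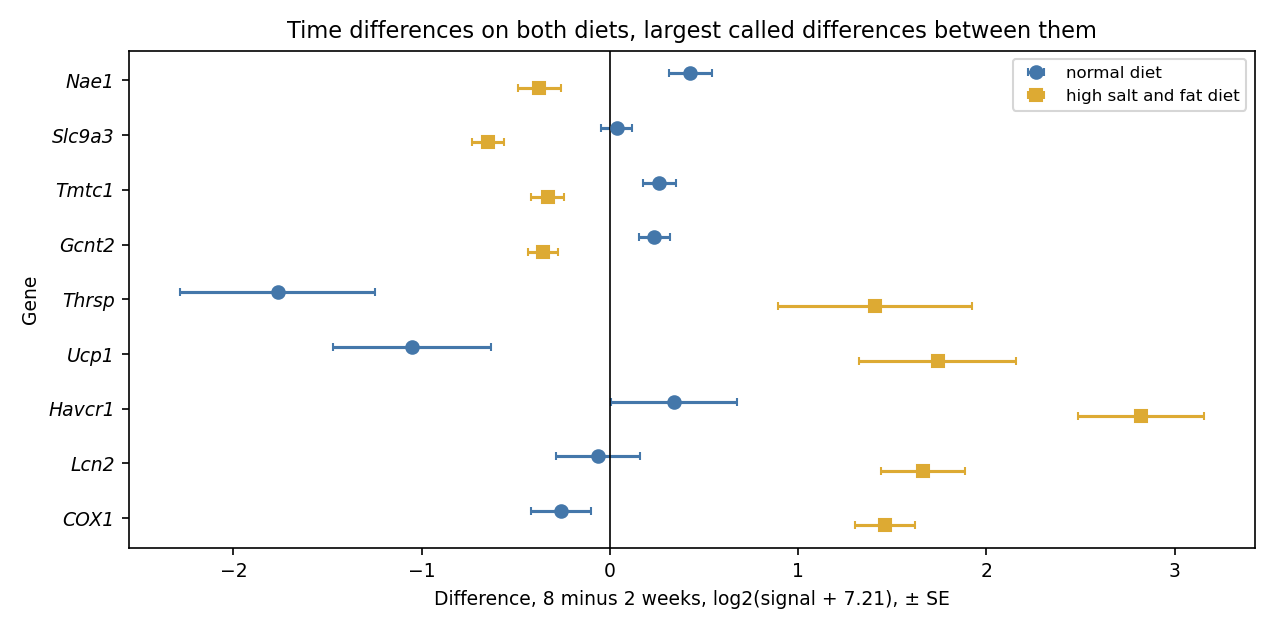
Difference between 8 and 2 weeks (horizontal, log2(signal + 7.21), with bars of 1 SE) on the normal diet (circles) and the salt and fat diet (squares) for 9 genes called in the test between the 2 time effects, all 4 of the positive ones and the 5 largest negative ones. Havcr1, Lcn2 and COX1 lie near 0 on the normal diet (0.34, -0.06 and -0.26) and between 1.46 and 2.82 on the other.

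Spread between animals of the same age gives the resolution of these comparisons. The pooled within-group SD of log2 values had a median of 0.184 over the tested probe sets and a 95th percentile of 0.444, and 16 probe sets exceeded 1. Among tested probe sets with 1 gene symbol, the largest were Fabp4 (1.97), both Car3 probe sets (1.77 and 1.60), Scd (1.61), 3 Thrsp probe sets (1.5, 1.36 and 1.28) and Cfd, adipsin (1.30). The other 2 of the 10 widest were Sult2b1, a sterol sulfotransferase (1.12, with signals of 10.4 to 99.1 at 2 weeks and 14.6 to 114.9 at 8 weeks), and Gpatch1, an RNA-processing protein (1.10, with 10.9 to 133.7 and 11.3 to 133.8). Of the 15866 probe sets that are not array controls, 7964 (50.2%) were above the 40th percentile on all 12 arrays and 4730 on 0 of them.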

How the data were processed

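Whole-kidney RNA of 24 rats was measured on 1 Affymetrix rat array each. The authors deposited intensity values, MAS5 signals by the submitters' processing notes; the version, scaling target and detection calls are not given in the sources used here. On each array the deposited intensity had a mean, without the outer 2% at either end, of 150.034 to 150.042, so arrays were already scaled, and 27 values were 0.

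From these, log2(signal + 7.21) was computed (7.21 is 0.1 times the median array median) with no further normalisation. A probe set was tested if at least 6 of 24 arrays had it above their own 40th percentile, which left 10208 of 15923. Of all, 57 were array controls, 12783 had 1 gene symbol, 312 several and 2771 none; symbols came from the platform annotation, checked through a RefSeq table of GRCr8 that lacked 35 identifiers and changed 0 symbols.

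Group means were fitted to all 24 arrays by limma 3.58.1 under R 4.3.3, using lmFit and eBayes with an intensity trend. Tests were two-sided; a call is an adjusted p under 0.05 (Benjamini-Hochberg, all tested probe sets). Named genes were the called probe sets with 1 symbol whose 8-week arrays all lay beyond the 2-week median (at most 12 each way), defining members of each list, the 10 widest within-group SDs and the 5 largest called differences each way of the diet by time test. The SDs and the diet by time differences were ranked among tested probe sets with 1 symbol. List members named for an unadjusted p under 0.05 or for not overlapping were chosen after their values were seen. A gene stands in its list by its probe set of highest mean signal. Members and lists were chosen with earlier results of these data known. The fit was tested on simulated data.

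Alternatives were other pseudocounts, scalings, filters, variance settings, covariates, a replicate block, the normal-diet arrays alone, and arrays left out. List genes without a probe set of their single symbol were not analysed here.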

Additional observations from a re-analysis of the deposited data

Results flagged for a closer look

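Of 332 gene and age groups of 6 arrays, 25 held an array whose gap to its nearest neighbour exceeded Dixon's 95% limit, 14 at 2 weeks and 11 at 8 weeks. For genes chosen without regard to their values, chance gives about 1 in 20. The groups included genes named for a wide spread, such as Gpatch1, or called without 8-week arrays 1 and 2, such as Tacc2. That rate therefore does not hold for the whole set. On 8-week array 1, Aqp3 read 344.2 (other 5 arrays 421.8 to 466.0), Tacc2 288.0 (430.0 to 529.8), Pecam1 of endothelium 32.5 (75.6 to 88.8) and the clock repressor Nr1d1 89.0 (171.1 to 196.6). On 2-week array 1, Slc34a1 read 6017.6 (4909.4 to 5273.6), Umod 5168.0 (5773.8 to 6056.6), Cdkn1a, a cell cycle inhibitor, 19.6 (66.7 to 107.9), Gpatch1 10.9 (64.0 to 133.7), Cd8a 16.0 (4.6 to 5.8) and S100a9 18.2 (0.6 to 2.5), the last pair below the level used to keep probe sets. On 2-week array 4, Havcr1 read 94.7 (19.7 to 35.8), Mx1, an interferon-induced antiviral protein, 153.3 (38.3 to 53.8) and Aqp6 52.4 (33.1 to 37.6). On 2-week array 6, Per1 read 73.5 (131.1 to 174.2), Slc4a1 321.0 (399.0 to 440.8) and Igfbp7 3576.5 (4380.6 to 4626.3).

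On 8-week array 5, COX1 read 8425.2 (3154.4 to 4254.9), Pdk4 67.2 (98.8 to 119.7) and Lamp1 of lysosomes 2752.1 (2243.6 to 2393.9). On 8-week array 3, Slc12a3 read 463.2 (673.8 to 782.7) and Dcn 830.0 (584.3 to 663.0). The others were Gpatch1 at 11.3 on 8-week array 6 (64.7 to 133.8), Per1 at 24 on 8-week array 2 (98.1 to 177.5), Fos at 7.5 on 2-week array 3 (26.4 to 43.2) and S100a8 at 0.5 on 2-week array 5 (1.3 to 1.7).

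The time difference on the normal diet minus that on the salt and fat diet passed the limma test for 17 named genes. Over all tested probe sets it passed for 39 (0.382%). The positive genes and Thrsp, Ucp1, Havcr1, Lcn2 and COX1 were named for being the largest called differences in this test. Their passing was therefore fixed by the choice. The difference was positive for Nae1 (0.80), Slc9a3 (0.68), Tmtc1 (0.59) and Gcnt2 (0.59). It was negative for Thrsp (-3.18, for the probe set that was called), Ucp1 (-2.79), Havcr1 (-2.48), Lcn2 (-1.73), COX1 (-1.72), Col1a1 (-1.57), Spp1 (-1.25), Clu (-1.19), Cd68 (-1.05), Col3a1 (-0.91), RT1-Da (-0.89), C1qa (-0.62) and B2m (-0.42).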

How the results depend on the processing

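The count of 4 probe sets called over time on the normal diet (3 higher, 1 lower) was 0 with a covariate for the GAPDH ratio, the fat index or the spike-in level, without an intensity trend, and in the 12 normal-diet arrays alone, where fewer arrays estimate the spread; an unadjusted limma p under 0.05 was seen for 961 probe sets with the fat index, 522 with the spike-in level, 938 with the GAPDH ratio, 878 without the trend and 922 in the 12 arrays. The differences themselves moved less: Grem1 gave 1.24, 1.007 and 1.14 and Ccm2 -1.43, -1.33 and -1.60 with the GAPDH ratio, fat index and spike-in level. In the same order Csrp1 gave 0.40, 0.47 and 0.37, and Aqp3 gave 0.42, 0.35 and 0.51. The count was 2 (1 higher, 1 lower) with arrays centred on their medians and 9 (5 and 4) without 8-week arrays 1 and 2. Array weights gave 2 lower. With 1 array left out it was 0 to 10, with 0 to 7 higher and 0 to 3 lower: 0 without 2-week array 1 or 4 or 8-week array 2, 3 or 4, 1 without 2-week array 5 or 8-week array 5 or 6, 2 without 2-week array 2, 8 without 2-week array 6 and 10 without 8-week array 1. Same-numbered animals of the 2 ages deviated with correlations of -0.075 to 0.145, so the numbers were not taken as pairs; a replicate block gave 3 higher and 2 lower, and 2 of 6 numbers (5 and 6) correlated best with their own.

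The 39 probe sets of the diet by time test became 4 with the GAPDH ratio, 13 with the fat index, 0 with the spike-in level and 80 with array weights, and 27 to 50 with 1 array left out. Without 8-week arrays 1 and 2, the spike-in difference was -0.173 (exact permutation p = 0.0667) and the fat index difference -1.53 (exact p = 0.0381). With 1 array left out the actin ratio differed by 0.0747 to 0.137, past the threshold without 2-week array 4 (exact p = 0.0195), and the fat index by -1.45 to -0.741, past it without 8-week array 1 (exact p = 0.0281). Of 1091 values of 41 single-gene results, 977 kept their direction and side of the threshold, 98 lost the call, 15 gained it and 1 changed sign (Cfd, 0.085 with the fat index, adjusted p = 0.909). Results not called in the main fit, such as Krt18 and Podxl, count as kept when they stay uncalled. The 98 lost calls all belong to results called in the main fit, so the 977 do not measure how stable the called genes were. Of 1120 list medians, 1101 moved by less than 1 SD between arrays. The causes were not tested. Signals near the 40th percentile, such as those of Ccm2, Havcr1 and Lcn2, limit what these arrays resolve.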
